A study of Homo sapiens with 8 samples.

Results

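Translation initiation and elongation factors are the proteins that bring messenger RNA (mRNA), initiator tRNA and ribosomal subunits together and then carry the ribosome from codon to codon. Their genes were taken from a table of 63140 genes by symbol. Protein-coding genes named EIF1 to EIF6 or EEF1 and EEF2 were kept, without the EIF2AK kinases and without pseudogenes. Of 227 symbols that matched, 161 were pseudogenes or non-coding and 66 were kept. Of these, 62 had counts and were tested, and 4 had 0 counts in all 8 libraries.

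The libraries are labelled as coming from MOLM13 and OCI-AML4, established human acute myeloid leukaemia lines, on day 3 after nucleofection. In the knockout (KO) groups the cells received Cas9 ribonucleoprotein, the Cas9 nuclease already loaded with its guide RNA, which cuts both DNA strands. In the base editing (CBE) groups they received a cytosine base editor, an enzyme fusion that changes C to T and leaves the DNA uncut across both strands. Guides for AAVS1, the control site, gave the groups labelled WT in genotype, and guides for HOTSCRAMBL, a long non-coding RNA, gave the targeted groups. The 4 groups that result (AAVS1 with KO or CBE, HOTSCRAMBL with KO or CBE) had 2 libraries apiece, replicate 1 labelled MOLM13 and replicate 2 labelled OCI-AML4. RNA was recovered by ChIRP, in which glutaraldehyde-fixed, sonicated lysate is hybridised with biotinylated probes and captured on streptavidin. The labels do not name the RNA the probes target, so each value is an amount of RNA in a pull-down, and an enrichment over input was not computed. The edited cells were used as a population, and no clone is named.

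Total counts ran from 20548300 to 37970163 per library, and between 21945 and 26083 genes had a count. Between the labelled lines 119 of 24057 tested genes passed the test (0.495%). Deviations from group means correlated between groups at r of 0.0154 to 0.0411 over all tested genes. The counts thus hold little difference between the labels that the groups share. No library of known line was there to check these labels. Myeloid markers (10 genes) summed to between 1910 and 2240 CPM (counts scaled to a common library size) in every library. Single markers moved within this sum. In the average over editors 1 of the 10 was called higher and 4 lower in edgeR, against 5.79% and 6.51% of all genes. The log2 fold changes ran from −0.87 to 5.03. The 4 lower were ITGAM (−0.87, adjusted p 0.00724), MPO (−0.73, adjusted p 0.00426), CD33 (−0.33, adjusted p 0.0173) and CSF3R (−0.27, adjusted p 0.00387). With KO 1 of the 10 was called higher and 1 lower, against 4.51% and 4.25% of all genes. LYZ was called higher with KO, by 2.20 on the log2 scale, and was not called with CBE (0.23). With CBE 2 of the 10 markers were called higher and 1 lower, against 4.56% and 4.27% of all genes, with log2 fold changes from −0.91 to 7.93. The difference between editors ran from −5.82 to 1.97. It had 1 called higher and 1 lower, against 1.74% and 1.45% of all genes. The markers were not tested against these shares, and their part in the members' changes was not tested. The T cell markers CD3D, CD3E, CD3G and CD2 summed to 0 to 2.35 CPM with 2 of the 4 at 0 in all libraries, and erythroid and epithelial or fibroblast markers stayed at or below 2.74 CPM. B cell markers summed to between 6.35 and 11.4 CPM. The level of HOTSCRAMBL itself is not analysed here.

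Initiation begins when eIF2 carries the initiator tRNA to the small ribosomal subunit and eIF4F binds the cap of the mRNA and recruits that subunit through eIF3. Elongation then uses eEF1A to bring aminoacyl-tRNA, the eEF1B complex to reload eEF1A with GTP, and eEF2 to move the ribosome along. Many mRNAs of the translation machinery begin with a C followed by a run of pyrimidines, the 5′ terminal oligopyrimidine (TOP) motif, which ties their translation to mTOR signalling through the binding protein LARP1.

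The elongation factor mRNAs EEF1A1, EEF2 and EEF1B2 were 2 to 4 times more abundant in the pull-down after HOTSCRAMBL targeting than after AAVS1 targeting, with each editor. Subunits of eIF3 and the helicase cofactor EIF4B rose with them by smaller steps, while EEF1D fell with both editors. EIF3A and EIF4A3 changed with KO and differed between the editors. The tested genes of eIF2B, eIF5A and eIF6 held 1 call within an editor, that of EIF2B5. All changes are of RNA recovered in bulk pull-down libraries. There, fewer cells carrying an RNA, less RNA per cell and less recovery in the pull-down cannot be told apart.

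The start sites of some members that rose are shown first, picked because they carry a pyrimidine run like that of the TOP class. Each line gives 15 bases before and 15 from the annotated transcription start, 5′ to 3′ on the gene's strand, from RefSeq promoters on GRCh38.p14. Capitals mark a run of at least 5 C or T that begins with C within 5 bases of the start.
EEF1A1 (chr6:73521018-73521047, minus strand): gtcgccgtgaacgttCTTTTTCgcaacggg
EEF2 (chr19:3985449-3985478, minus strand): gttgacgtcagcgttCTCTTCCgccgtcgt
EEF1B2 (chr2:206159880-206159909, plus strand): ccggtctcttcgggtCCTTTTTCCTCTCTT
EIF4B (chr12:53006441-53006470, plus strand): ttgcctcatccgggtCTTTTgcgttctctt
EIF3F (chr11:7987322-7987351, plus strand): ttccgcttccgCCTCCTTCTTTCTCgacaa
EIF3D (chr22:36529152-36529181, minus strand): gcgcgcgcatgtttCCTCTTTTCCTggttt
EIF4A3, which rose with KO and not with CBE, has no such run in this window.
EIF4A3 (chr17:80147114-80147143, minus strand): gttctcggcagcggcacagcgaggtcggca
In EEF1A1, EEF2, EEF1B2 and EIF4B the run starts at the annotated first base. EEF1B2 has another annotated start without a run. Other members that rose are not shown. Of these EIF3I, higher with both editors, and EIF1AX and EIF4H, higher with CBE, have no run. EIF1, higher with both editors, has a run of 5 bases that begins 5 bases before the start. EIF2S3, EIF3M, EIF4EBP2 and EIF4G2, higher with CBE, have a run at an annotated start.

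The members took 0.942% and 0.994% of all counts in the AAVS1 KO libraries and 0.91% and 0.997% in the AAVS1 CBE libraries. In HOTSCRAMBL KO they took 1.23% and 1.37%, and in HOTSCRAMBL CBE 1.24% and 1.29%. The groups did not overlap, and the 95% Wilson intervals, which cover counting error only, were at most 0.0095 percentage points wide. Most of this difference lay in EEF1A1 and EEF2. Together they made up 29.2% of the members' summed CPM in the KO controls and 52% after HOTSCRAMBL KO, and 29.8% and 44.1% in the CBE groups. Without these genes the members summed to 6524 CPM in the KO controls and 6613 after HOTSCRAMBL KO, and to 6352 and 7391 CPM in the CBE groups. Beside this, cytosolic ribosomal protein genes took between 1.3% and 1.57% of counts in AAVS1 libraries and between 3.16% and 4.43% in HOTSCRAMBL libraries. The mitochondrial share was between 6.77% and 7.23% in AAVS1 libraries and between 10.2% and 11.9% in HOTSCRAMBL libraries. The part of these shifts in the members' changes was not tested.

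The first comparison asked how aiming Cas9 at HOTSCRAMBL changed the recovered RNA. Genes were tested with edgeR's quasi-likelihood test over all 24057 genes, and a gene counts as called at a Benjamini-Hochberg adjusted p under 0.05. With KO 19 of 62 members were called (30.6%), against 8.76% of all genes, 14 higher and 5 lower, against 4.51% and 4.25% of all genes. Most members are well expressed, and such genes are called more often. Of the 46 members with a mean level of at least 20 CPM, 14 were higher (30.4%) and 5 lower (10.9%), against 10.4% and 12% of all genes at that level. The median log2 fold change of the 62 was 0.18, and that of all genes −0.01. Directions are relative to TMM scaling, which assumes that most genes do not change. Without it the median of all genes moved to −0.17 and the calls became 10 higher and 10 lower.

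With CBE 22 of 62 members were called (35.5%), against 8.83% of all genes, 20 higher and 2 lower, against 4.56% and 4.27%. At a level of at least 20 CPM 19 of 46 members were higher (41.3%) and 2 lower (4.35%), against 12.8% and 11.3% of genes at that level. The median log2 fold change was 0.40, and −0.02 over all genes. Without TMM scaling the median of all genes was −0.15, and 13 members were higher and 5 lower. Groups whose 2 libraries lay wholly above those of the control numbered 26 members with KO and 33 with CBE, and wholly below 15 and 9, where 21% and 22.7% of all genes lay above and 23.8% and 23.7% below.

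Called higher with both editors were 11 members, namely EEF1A1, EEF1B2, EEF2, EIF1, EIF3D, EIF3F, EIF3H, EIF3I, EIF3L, EIF4B and EIF4EBP1. EEF1D was called lower with both, and 0 members were called in opposite directions. The comparisons with KO and with CBE set different libraries against each other, but both came from the same fit of all 8 libraries. That fit shares the estimate of spread and the line term, so the calls with KO and with CBE are not independent. The shares of all genes called higher, lower or in opposite directions with both editors were not computed, so these counts have no background. Averaged over both editors 30 members were called, against 12.3% of all genes, 24 higher and 6 lower, against 5.79% and 6.51%, or 16 and 10 without TMM. Between the control groups AAVS1 KO and AAVS1 CBE 0 members were called with edgeR, as were 0 of all 24057 genes, and DESeq2 called 0 members. In edgeR 0 members had an unadjusted p under 0.05 there, against 3.82% of all genes.

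**Figure D1:**
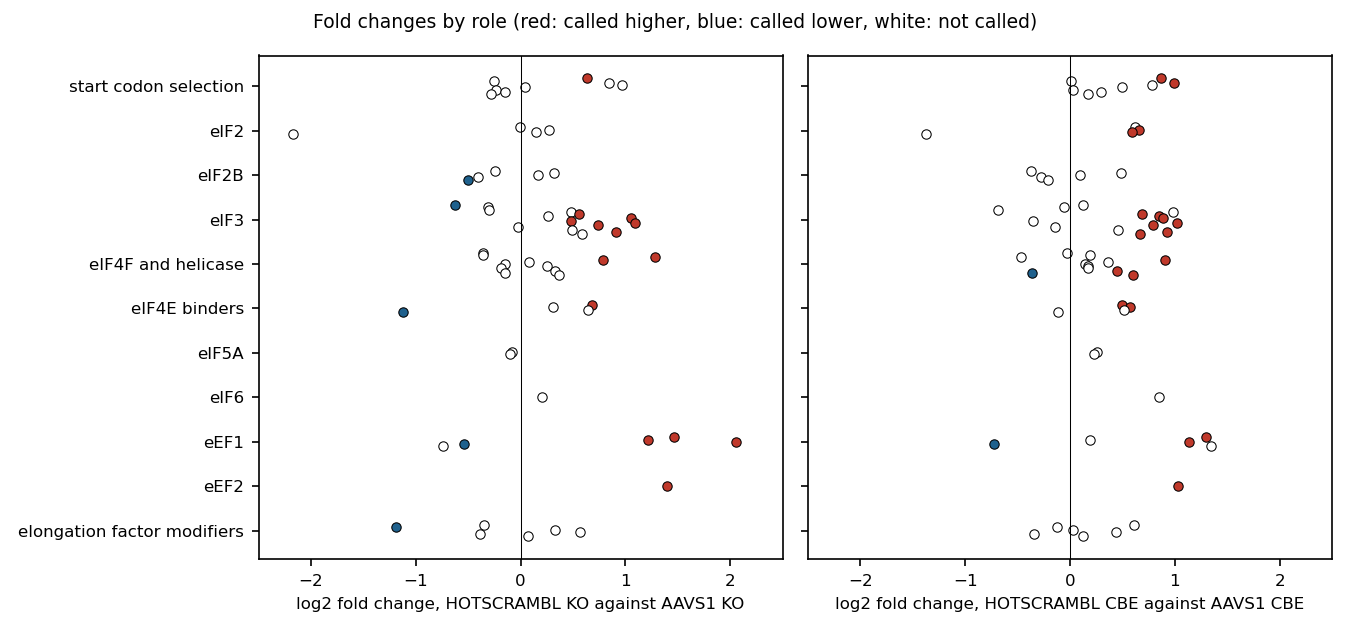
Log2 fold change of each tested member by role, HOTSCRAMBL against AAVS1, for KO (left) and CBE (right). Each point is 1 gene, red if called higher and blue if called lower at an edgeR adjusted p under 0.05; 61 of 62 tested members are drawn, EIF1AY being counted in the text only. The eEF1, eEF2 and eIF3 rows hold 10 of the 14 higher calls with KO and 10 of the 20 with CBE, EIF1AY being 1 of the latter.

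The factors of start codon selection include EIF1, which keeps the scanning ribosome from starting at the wrong codon. EIF1 stood at 93.29 and 134.9 CPM in AAVS1 KO and at 171.5 and 179.5 CPM in HOTSCRAMBL KO, where the library labelled MOLM13 comes first here and throughout. In AAVS1 CBE it stood at 112.1 and 122.1 CPM and in HOTSCRAMBL CBE at 217.6 and 206.5 CPM. All 4 HOTSCRAMBL libraries lay above all 4 AAVS1 libraries. EIF1 rose by 0.63 on the log2 scale with KO (SE 0.151, edgeR adjusted p 0.00701) and by 0.87 with CBE (SE 0.14, edgeR adjusted p 0.000104). The KO call was lost without TMM scaling, with only the 4 KO libraries, without AAVS1 KO replicate 1 and without either HOTSCRAMBL KO library. The CBE call was lost without HOTSCRAMBL CBE replicate 1. Of the 9 genes of this role, 1 was called with KO and 3 with CBE, all higher. Beside the role counts here and below, 4.51% of all genes were higher and 4.25% lower with KO, and 4.56% and 4.27% with CBE. At a mean of at least 20 CPM these shares were 10.4% and 12% with KO, and 12.8% and 11.3% with CBE. No role was tested against these shares. EIF1AX, a partner of EIF1 on the scanning ribosome, rose by 0.99 with CBE (edgeR adjusted p 0.0351), a call that held in 9 of 18 alternatives and was lost without either HOTSCRAMBL KO library or any one CBE library. EIF5, the GTPase-activating factor of eIF2, and EIF5B, which joins the large subunit, were not called, with log2 fold changes of −0.15 and −0.28 with KO and 0.30 and 0.17 with CBE. The median of the role was 0.04 with KO and 0.50 with CBE.

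The trimer eIF2 delivers initiator tRNA, and phosphorylation of its alpha subunit, encoded by EIF2S1, lowers initiation in the integrated stress response. EIF2S1 stood at 27.36 and 17.28 CPM in the AAVS1 and 20.25 and 23.69 CPM in the HOTSCRAMBL libraries with KO, and at 28.5 and 18.41 against 35.25 and 38.11 CPM with CBE. The KO groups overlapped, and the CBE groups did not, but the difference with CBE was not called (0.62 on the log2 scale, SE 0.268, edgeR adjusted p 0.18). The other subunits rose with CBE, EIF2S2 by 0.66 (edgeR adjusted p 0.00561) and EIF2S3 by 0.59 (edgeR adjusted p 0.00317), and neither was called with KO. Both CBE calls were lost with only the 4 CBE libraries, without AAVS1 CBE replicate 1 and without HOTSCRAMBL CBE replicate 1. That of EIF2S2 was also lost without AAVS1 CBE replicate 2. EIF2S3B, a copy of EIF2S3, had between 0.158 and 3.06 CPM, too little to show a difference of this size.

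The factor eIF2B reloads eIF2 with GTP and is the target of the stress signal. None of its 5 genes was called with CBE in edgeR, and 1 was called with KO. EIF2B5, the catalytic subunit, stood at 144 and 126.1 CPM in AAVS1 KO and 97.68 and 93.69 after HOTSCRAMBL targeting. It fell by 0.50 with KO (SE 0.153, edgeR adjusted p 0.0414), and this call held in 6 of 18 alternatives and was lost without any one of the 8 libraries. In the CBE groups it stood at 123.4 and 124.8 against 114.2 and 100.3 CPM, not called (edgeR adjusted p 0.455). The 5 genes had log2 fold changes between −0.50 and 0.32 with KO and between −0.37 and 0.49 with CBE.

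The scaffold eIF3, the initiation factor with the most subunits, holds the small subunit and bridges it to the cap complex. Of its 14 genes, 6 were called higher and 1 lower with KO, and 7 higher and 0 lower with CBE, with medians of 0.49 and 0.68. EIF3H stood at 83.92 and 106.8 CPM in the AAVS1 and 185.6 and 220.4 CPM in the HOTSCRAMBL libraries with KO, and at 92.44 and 96.84 against 186.7 and 197.6 CPM with CBE. The lowest HOTSCRAMBL library was above the highest AAVS1 library. EIF3H rose 2.13-fold with KO (1.09 on the log2 scale, SE 0.143, edgeR adjusted p 4.01e-06) and 2.03-fold with CBE (1.02, SE 0.135, edgeR adjusted p 6.29e-06).

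EIF3F and EIF3D showed the same order of groups. EIF3F, which with EIF3H and EIF3M forms part of the core of the complex, stood at 36.85 and 33.6 CPM in the AAVS1 and 79.27 and 66.51 CPM in the HOTSCRAMBL libraries with KO, and at 33.48 and 35.26 against 65.68 and 61.1 CPM with CBE. Its log2 fold changes were 1.05 with KO (edgeR adjusted p 0.00165) and 0.89 with CBE (edgeR adjusted p 0.00421). EIF3D, a subunit that can bind the cap itself, stood at 166.6 and 151.1 CPM in the AAVS1 and 225.3 and 244.2 CPM in the HOTSCRAMBL libraries with KO, and at 154.3 and 169.5 against 255.3 and 267.5 CPM with CBE. It rose by 0.56 with KO (edgeR adjusted p 0.00401) and by 0.69 with CBE (edgeR adjusted p 0.000246). For both genes every HOTSCRAMBL library was above every AAVS1 library. The KO call of EIF3F was lost without either AAVS1 KO library or HOTSCRAMBL KO replicate 1. Its CBE call was lost with only the 4 CBE libraries and without AAVS1 CBE replicate 1 or either HOTSCRAMBL CBE library. The KO call of EIF3D was lost with only the 4 KO libraries and without replicate 2 of either KO group. Its CBE call held in all 18 alternatives.

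EIF3I and EIF3L were also called with both editors, at 0.74 and 0.91 with KO and 0.79 and 0.93 with CBE. The KO call of EIF3I held in 7 of 18 alternatives and was lost without any one library, and that of EIF3L held in 10 and was lost without any one KO or HOTSCRAMBL CBE library. The CBE calls of both were lost with only the 4 CBE libraries and without any one CBE library, and that of EIF3I also without TMM scaling. Other annotated genes share 51.8% of the exon bases of EIF3L, and reads over both were not counted. EIF3E was called with CBE, at 203.5 and 224.1 CPM in the controls and 391.3 and 374.5 after HOTSCRAMBL targeting (0.85 on the log2 scale, SE 0.115, edgeR adjusted p 9.41e-06). With KO it stood at 206.7 and 220.4 against 225.4 and 287.7 CPM and was not called (0.26, edgeR adjusted p 0.222), and the difference between the editors was not called either (−0.58, edgeR adjusted p 0.0561). EIF3C and its near-identical copy EIF3CL had at most 26 and 6.87 CPM, and reads that fit both were not counted.

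EIF3A, the largest subunit and the scaffold on which the others assemble, went the other way with KO. It stood at 1131 and 853.3 CPM in AAVS1 KO and at 653.3 and 616.9 CPM in HOTSCRAMBL KO, without overlap. It fell by 0.63 on the log2 scale with KO (SE 0.0934, edgeR adjusted p 2.66e-05). With CBE it stood at 942.9 and 883.7 CPM in the control and 1045 and 936.3 CPM after HOTSCRAMBL targeting, which overlap (0.12 on the log2 scale, SE 0.0907, edgeR adjusted p 0.53). Its fall with KO held in all 18 alternatives.

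The cap complex eIF4F joins the cap-binding protein EIF4E, the scaffold EIF4G1 and the helicase EIF4A1, which EIF4B and EIF4H stimulate. Among the 11 tested genes of this role, 2 were called higher with KO, and 3 higher and 1 lower with CBE. EIF4E stood between 13.16 and 25.55 CPM in all libraries and was not called (0.08 and 0.36, edgeR adjusted p 0.938 and 0.606). EIF4G1 stood at 560.6 and 544.6 CPM in the AAVS1 and 469.5 and 498.4 CPM in the HOTSCRAMBL libraries with KO, and at 595.9 and 493.5 against 655.6 and 566.7 CPM with CBE. It was not called with either editor (−0.19 with SE 0.102 and 0.17 with SE 0.0989). EIF4A1 and EIF4A2, the usual helicases of the complex, were not called, at −0.36 each with KO and at −0.03 and 0.19 with CBE.

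EIF4B was the member of this role that rose with both editors. It stood at 140.5 and 146.4 CPM in the AAVS1 and 251.5 and 244.5 CPM in the HOTSCRAMBL libraries with KO, and at 140.8 and 147 against 281.6 and 259.8 CPM with CBE. The AAVS1 libraries lay between 140.5 and 147 CPM, all below the HOTSCRAMBL libraries. It rose 1.73-fold with KO (0.79 on the log2 scale, SE 0.126, edgeR adjusted p 7.65e-05) and 1.88-fold with CBE (0.91, SE 0.12, edgeR adjusted p 5.07e-06). EIF4G3, a relative of EIF4G1, fell by 0.36 with CBE, from 475.8 and 460.1 CPM to 366.8 and 360.3 CPM (SE 0.0992, edgeR adjusted p 0.0178). This call was lost without the line label, with only the 4 CBE libraries and without either AAVS1 KO library or any one CBE library.

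EIF4A3 belongs to the same helicase family, but its protein is a core part of the exon junction complex, which marks spliced mRNA, and not of eIF4F. It stood at 57.86 and 57.08 CPM in AAVS1 KO and 133.3 and 146 CPM in HOTSCRAMBL KO. With CBE it stood at 60.37 and 49.81 CPM in the control and 36.89 and 43.86 CPM after HOTSCRAMBL targeting. The HOTSCRAMBL KO libraries were the highest of the 8 and the HOTSCRAMBL CBE libraries the lowest. It rose 2.43-fold with KO (1.28 on the log2 scale, SE 0.178, edgeR adjusted p 1.08e-05), and the lower level with CBE was not called (−0.47, SE 0.198, edgeR adjusted p 0.165).

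The eIF4E-binding proteins hold EIF4E away from EIF4G1 when mTOR is inactive. EIF4EBP1 stood at 129.6 and 138.2 CPM in the AAVS1 and 202.8 and 226.4 CPM in the HOTSCRAMBL libraries with KO, and at 99.88 and 125.5 against 142.5 and 175.8 CPM with CBE. All 4 HOTSCRAMBL libraries lay above all 4 AAVS1 libraries, by a narrow gap. It rose by 0.68 with KO (SE 0.134, edgeR adjusted p 0.00107) and by 0.50 with CBE (SE 0.133, edgeR adjusted p 0.0159). The KO call was lost without AAVS1 KO replicate 2. The CBE call was lost without the line label, without TMM scaling, with only the 4 CBE libraries and without any one CBE library. EIF4EBP2 rose with CBE by 0.57 (edgeR adjusted p 0.0163), which was lost under the same conditions as the CBE call of EIF4EBP1, and had 0.31 with KO, not called. EIF4ENIF1, which carries EIF4E into the nucleus and into P-bodies, fell with KO from 36.41 and 40.04 CPM to 14.69 and 20.02 CPM (−1.12, SE 0.306, edgeR adjusted p 0.0186). In the CBE groups it stood at 42.6 and 39.46 against 43.18 and 31.69 CPM (−0.11, edgeR adjusted p 0.841). Its KO call was lost with only the 4 KO libraries and when any one KO library was left out. EIF4EBP3 had under 1.3 CPM in every library.

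EIF5A carries the modified lysine hypusine and helps ribosomes past difficult codons. It stood at 88.9 and 122.4 CPM in the AAVS1 and 81.26 and 119.2 CPM in the HOTSCRAMBL libraries with KO, and at 86.05 and 119.6 against 113.1 and 130.4 CPM with CBE. In each group the library labelled MOLM13 was the lower, and EIF5A was called neither by editor (−0.08 and 0.26, edgeR adjusted p 0.844 and 0.33) nor by line label (−0.41, edgeR adjusted p 0.11). EIF6, which keeps the ribosomal subunits apart, stood between 11.38 and 23.78 CPM and was not called (0.20 and 0.85, edgeR adjusted p 0.794 and 0.104).

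**Figure D2:**
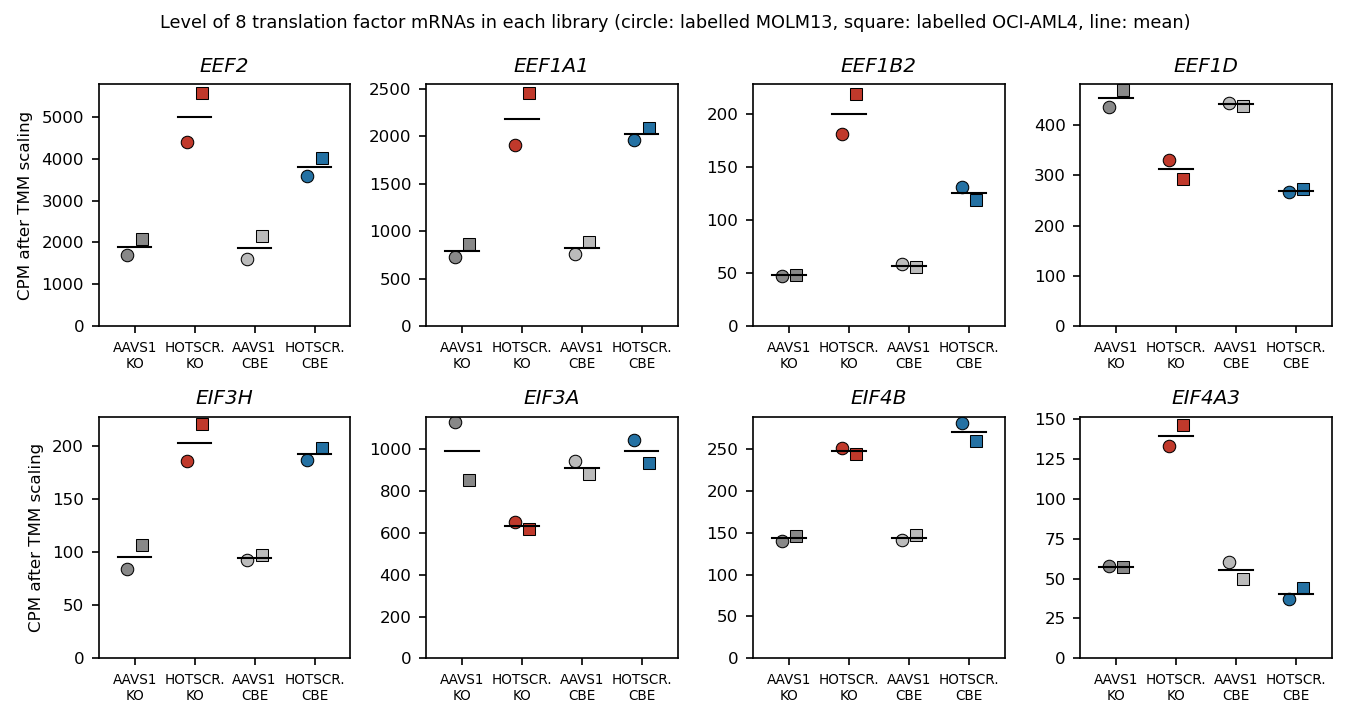
CPM after TMM scaling (vertical axis, from 0) of 8 members in each library, by group. Circles are libraries labelled MOLM13, squares those labelled OCI-AML4, and lines are means of 2 libraries. EEF2, EEF1A1, EEF1B2, EIF3H and EIF4B are higher in all HOTSCRAMBL libraries, EEF1D is lower in all of them, and EIF3A and EIF4A3 separate the HOTSCRAMBL KO libraries from the rest.

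The elongation factors EEF2 and EEF1A1 rose with both editors. EEF2 (ENSG00000167658, chromosome 19, 3976056 to 3985463, minus strand), the translocase, stood at 1695 and 2093 CPM in the AAVS1 and 4405 and 5576 CPM in the HOTSCRAMBL libraries with KO, and at 1606 and 2149 against 3586 and 4017 CPM with CBE. It rose 2.63-fold with KO (1.40 on the log2 scale, SE 0.0743, edgeR adjusted p 3.28e-13) and 2.04-fold with CBE (1.03, SE 0.0735, edgeR adjusted p 2.17e-10). EEF1A1 (ENSG00000156508, chromosome 6, 73489308 to 73525587, minus strand), which delivers aminoacyl-tRNA, stood at 722.8 and 864.5 CPM in the AAVS1 and 1910 and 2459 CPM in the HOTSCRAMBL libraries with KO, and at 764.6 and 883.2 against 1960 and 2091 CPM with CBE. It rose 2.75-fold with KO (1.46, SE 0.0838, edgeR adjusted p 1.35e-12) and 2.47-fold with CBE (1.30, SE 0.0828, edgeR adjusted p 2.47e-11). For both genes the lowest HOTSCRAMBL library was well above the highest AAVS1 library, and the calls held in all 18 alternatives of each editor.

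EEF1A1 has many processed copies, and reads that fit several places were not counted, so its level is uncertain. The 49 genes named as its pseudogenes summed to between 49.7 and 54.3 CPM in AAVS1 libraries and between 50.4 and 90.3 CPM in HOTSCRAMBL libraries. That was between 5.9% and 6.94% of the EEF1A1 counts in AAVS1 libraries and between 2.64% and 4.61% in HOTSCRAMBL libraries. EEF1A2, the form of muscle and nerve, stood at 19.79 and 26 CPM in the AAVS1 and 51.93 and 54.4 CPM in the HOTSCRAMBL libraries with KO, and at 23.19 and 21.06 against 23.89 and 26.97 CPM with CBE. Its HOTSCRAMBL KO libraries were the highest of the 8. It rose with KO (1.22, SE 0.261, edgeR adjusted p 0.00242) and was not called with CBE (0.19, edgeR adjusted p 0.762) or in the difference between editors (1.03, edgeR adjusted p 0.17). Its KO call was lost with only the 4 KO libraries, without AAVS1 KO replicate 1 and without either HOTSCRAMBL KO library.

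The eEF1B complex reloads eEF1A with GTP, and its measured subunits moved apart. EEF1B2 (ENSG00000114942, chromosome 2, 206159585 to 206162928, plus strand), a catalytic subunit, stood at 47.66 and 48.28 CPM in the AAVS1 and 181.1 and 219.4 CPM in the HOTSCRAMBL libraries with KO, and at 58.39 and 55.5 against 131.2 and 119.2 CPM with CBE. It rose 4.18-fold with KO (2.06, SE 0.168, edgeR adjusted p 1.1e-09) and 2.2-fold with CBE (1.14, SE 0.16, edgeR adjusted p 1.55e-05). EEF1D (ENSG00000104529, chromosome 8, 143579697 to 143599541, minus strand), the other catalytic subunit, stood at 435.7 and 470.6 CPM in the AAVS1 and 331.4 and 293.3 CPM in the HOTSCRAMBL libraries with KO, and at 444.1 and 438.8 against 266.3 and 271.9 CPM with CBE. It fell by 0.54 with KO (SE 0.107, edgeR adjusted p 0.00116) and by 0.72 with CBE (SE 0.105, edgeR adjusted p 2.8e-05). The KO call of EEF1D was lost with only the 4 KO libraries, without AAVS1 KO replicate 2 and without HOTSCRAMBL KO replicate 2. Other genes share 34% of the exon bases of EEF1D.

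EEF1G, the third subunit, had 0 counts in all libraries. Another annotated gene covers 99.7% of its exon bases, and a read over more than one gene was left out of the counts, so its level was not measured. The same holds for the readthrough gene EEF1AKMT4-ECE2, whose exons are wholly shared (100%). EIF4E1B and EIF5A2 also had 0 counts, which allows a level of up to between 0.079 and 0.146 CPM per library, scaled by total counts without TMM. EEF1E1, a scaffold protein of the tRNA synthetase complex, had between 1.89 and 9.17 CPM and was not called.

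Of the 6 enzymes that modify elongation factors, 0 were called with CBE in edgeR and 1 with KO. EEF1AKMT2, a lysine methyltransferase of eEF1A, fell with KO from 25.2 and 33.08 CPM to 13.42 and 12.16 CPM (−1.19, SE 0.346, edgeR adjusted p 0.0283). In the CBE groups it stood at 21.9 and 25.22 against 22.64 and 20 CPM, which overlap (−0.12, edgeR adjusted p 0.865). The KO call was lost with only the 4 KO libraries and without any one of the KO or AAVS1 CBE libraries. EEF2K, the kinase that inactivates eEF2, had log2 fold changes of −0.39 with KO and −0.34 with CBE (edgeR adjusted p 0.116 and 0.13), and was called lower in the average over editors (−0.36, edgeR adjusted p 0.0136), a call lost in 6 of the 8 fits that leave out one library, all but those without HOTSCRAMBL KO replicate 1 and HOTSCRAMBL CBE replicate 2.

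Whether the editors differed was tested directly, as the change with KO minus the change with CBE. This called 4 members of 62 (6.45%), against 3.19% of all genes, the value for KO being the higher in 3 and the lower in 1, against 1.74% and 1.45%. They were EIF4A3, EIF3A, EEF1B2 and EIF3G, and 14 (22.6%) had an unadjusted p under 0.05, against 14.1% of all genes. EIF4A3 differed by 1.75 (SE 0.266, edgeR adjusted p 0.000169), a call that held in all 17 alternatives. EIF3A differed by −0.75 (SE 0.13, edgeR adjusted p 0.000795), a call lost without AAVS1 KO replicate 1 and without AAVS1 CBE replicate 1. EEF1B2 differed by 0.92 (SE 0.237, edgeR adjusted p 0.0279), rising with both editors but further with KO. EIF3G, an RNA-binding subunit of eIF3, stood at 104.3 and 92.03 against 135.3 and 138.9 CPM with KO, and at 104.5 and 100.1 against 81.01 and 79.57 CPM with CBE. It rose with KO (0.48, edgeR adjusted p 0.0465), was not called with CBE (−0.35, edgeR adjusted p 0.178) and differed by 0.83 (SE 0.215, edgeR adjusted p 0.0283). The differences of EEF1B2 and EIF3G were lost without the line label, that of EIF3G also without any one library and that of EEF1B2 without any one library other than HOTSCRAMBL KO replicate 1. The KO call of EIF3G held in 5 of 18 alternatives and was lost without any one library. For EEF1A1 the difference was 0.15 (SE 0.116, edgeR adjusted p 0.606), and for EEF2 0.36 (SE 0.103, edgeR adjusted p 0.0506), so neither was called.

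**Figure D3:**
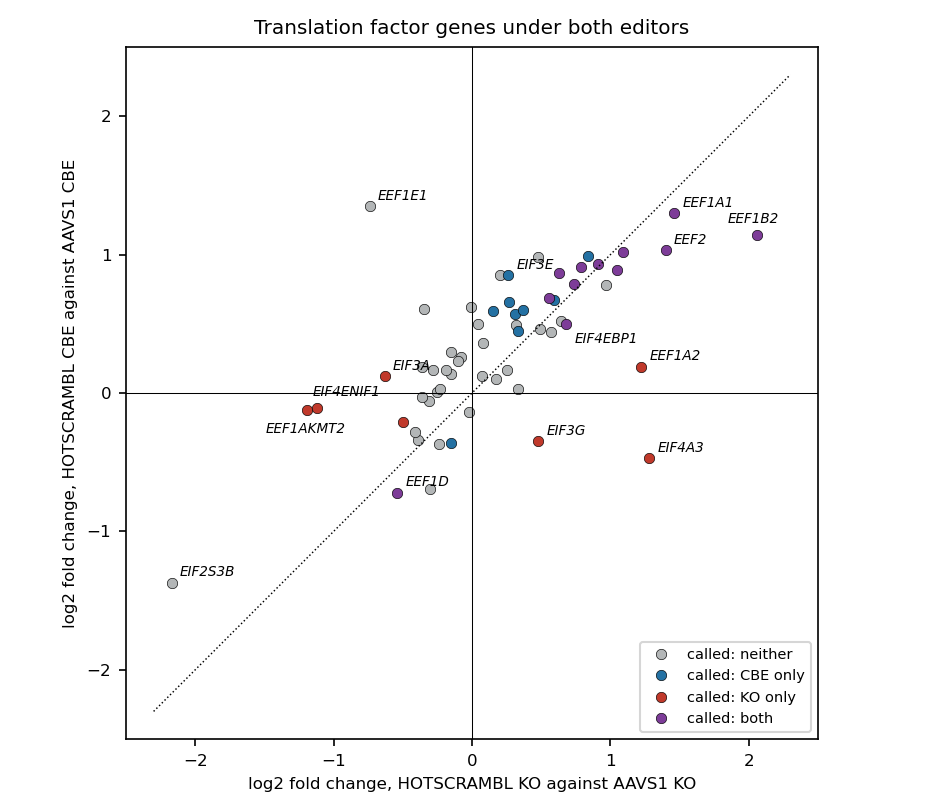
Log2 fold change of HOTSCRAMBL against AAVS1 with KO (horizontal) and with CBE (vertical), 1 point per gene, coloured by the editors with which it was called at an edgeR adjusted p under 0.05; EIF1AY is left out. The dotted line marks equal change. Most purple points lie at the upper right, EEF1D at the lower left, and EIF4A3, EIF3G and EIF3A lie away from the line.

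Between libraries labelled MOLM13 and OCI-AML4, 2 members were called, against 0.495% of all genes, both lower under the MOLM13 label, against 0.258%. EIF3J, the loosely bound eIF3 subunit that also acts in ribosome recycling, stood at 64.91 and 70.78 CPM in the MOLM13-labelled AAVS1 libraries (KO first, then CBE) and at 75.7 and 81.34 CPM in the HOTSCRAMBL ones. In the OCI-AML4-labelled libraries it stood at 135.7 and 168.8 CPM with AAVS1 and at 118.7 and 125.5 CPM with HOTSCRAMBL, in the same order, so that the labels did not overlap. Its log2 fold change was −0.91 for MOLM13 against OCI-AML4 labels (edgeR adjusted p 7.14e-05), a call that held in all 16 alternatives. By target it was not called (−0.02 with KO and −0.14 with CBE). EEF2 had −0.31 (edgeR adjusted p 0.00198), lower under the MOLM13 label in each group, and lost this call under limma-voom and without any one library of AAVS1 KO, HOTSCRAMBL KO or AAVS1 CBE.

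Levels were compared between members as mean CPM per kilobase of annotated exon. EEF2 led with 781.1, followed by EIF4EBP1 with 176.2, EEF1A1 with 144.8, EIF3A with 124.4, EIF4G1 with 62.63 and EEF1B2 with 56.18. Summing all annotated exons lowers this value for genes with long or many isoforms. EEF1A1 has 10063 exon bases in the annotation and EIF4EBP1 has 880. Across the 62 members the Spearman correlation of exon length with the log2 fold change was −0.176 with KO and −0.183 with CBE, and across all genes −0.0134 and −0.0095, as descriptions over genes that share the same libraries.

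The members known to carry the TOP motif were then set apart as a list of 11, of which 10 were tested (EEF1A1, EEF1B2, EEF1D, EEF2, EIF2S3, EIF3E, EIF3F, EIF3H, EIF3L and EIF4B). With KO 7 were called higher and 1 lower, and with CBE 9 higher and 1 lower, EEF1D being the lower one in each. Their median log2 fold change was 0.98 with KO and 0.92 with CBE. The 52 tested members outside this list had medians of 0.05 and 0.21, with 7 higher and 4 lower calls with KO and 11 and 1 with CBE. Of all genes 4.51% were higher and 4.25% lower with KO, and 4.56% and 4.27% with CBE. At a mean of at least 20 CPM these shares were 10.4% and 12% with KO, and 12.8% and 11.3% with CBE. No set was tested against them, and the list was chosen with earlier results of these data known. Over the 18 alternatives the median of the TOP list stayed between 0.82 and 1.02 with KO and between 0.78 and 0.99 with CBE, and that of the other members between −0.11 and 0.19 and between 0.07 and 0.38. Without TMM scaling the calls of the other members became 4 higher and 9 lower with KO and 4 and 4 with CBE. Without one KO library the TOP list had 5 or 6 higher calls with KO, and 0 lower without AAVS1 KO replicate 2 or HOTSCRAMBL KO replicate 2, and without one CBE library it had between 6 and 8 higher calls with CBE. Without one KO library the other members' calls with KO fell to 2 or 3 higher and 1 lower, and without one CBE library those with CBE to between 1 and 3 higher and 0 lower. The TOP members summed to between 3526 and 4215 CPM in AAVS1 libraries and between 7193 and 9613 CPM in HOTSCRAMBL libraries. The other members summed to 5496 and 5183 CPM in the controls and 5049 and 5118 CPM after HOTSCRAMBL targeting with KO, wholly lower, and to 5180 and 5187 against 5870 and 5731 CPM with CBE, wholly higher. The cytosolic ribosomal protein genes, the main body of TOP mRNAs, had 70 of 79 called higher with KO and 73 with CBE, with medians of 1.57 and 1.26.

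The start-site sequences above give a related view, which is not independent of the list. Promoters in the RefSeq table were searched on the gene's strand for the run defined there, C followed by at least 4 bases that are each C or T. Of all 35116 promoters, 7408 had it (21.1%), against 25 of 70 promoters of members (35.7%), 6 of 8 promoters of the TOP list (75.0%) and 58 of 80 of ribosomal protein genes (72.5%). By symbol 53 of 66 members matched, and those not matched were EEF1A2, EEF1AKMT1, EEF1AKMT3, EEF1D, EEF2KMT, EIF2S2, EIF3A, EIF3CL, EIF3E, EIF3G, EIF3H, EIF3L and EIF4EBP1. The 23 tested members with the run at any start had 7 higher and 0 lower calls with KO and a median of 0.31, and 12 higher and 0 lower with CBE and a median of 0.50. The 26 without it had 2 higher and 3 lower with KO (median −0.04) and 3 higher and 1 lower with CBE (median 0.20). Of the 7 with the run called higher with KO, all but EIF1 and EIF3D are on the TOP list. Of the 12 with CBE, EEF1A1, EEF1B2, EEF2, EIF2S3, EIF3F and EIF4B are on it. Over all tested genes with a promoter, 7.0% of the 3519 with the run and 5.5% of the 8859 without it were higher with KO, and 9.0% and 5.8% with CBE. Lower calls made up 6.0% and 6.3% with KO and 5.6% and 5.8% with CBE, so that these shares were close with and without the run. Whether the members' lower calls differ by the run was not tested. A run in the sequence is a match of letters at an annotated start and does not show which start these cells used.

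**Figure D4:**
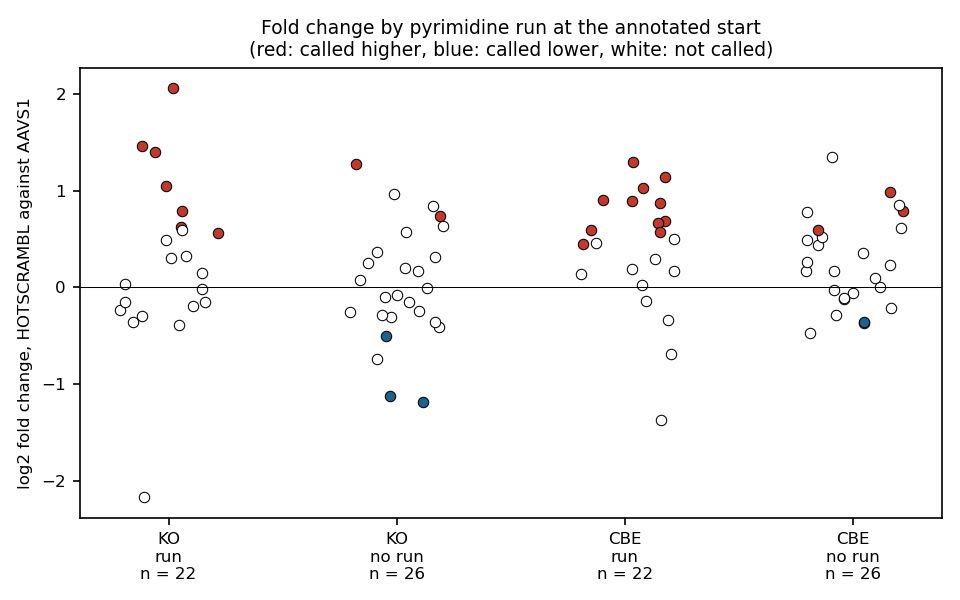
Log2 fold change (vertical) of members with a matched promoter, by editor and by whether a pyrimidine run lies at an annotated start. Each point is 1 gene, red if called higher and blue if called lower at an edgeR adjusted p under 0.05, with 22 members with and 26 without a run drawn, EIF1AY being left out. The 0 lower calls with a run and the 3 (KO) and 1 (CBE) without one were not tested against each other, and EEF1D has no matched promoter.

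Over the 8 libraries the genes whose log2 CPM had the highest Pearson r with EEF1A1, among 3985 genes with a mean of at least 50 CPM, were RPS4X (0.997), RPL14 (0.997), EIF3H (0.996), RPL15 (0.995) and MT-ND1 (0.994). These are descriptions, since the libraries fall into the same groups for every gene.

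Of 42 tested partners of the factors (kinases and phosphatases of eIF2, poly(A)-binding proteins, mTOR and its targets, release and recycling factors), 3 were higher and 2 lower with KO, against 4.51% and 4.25% of all genes, and 4 higher and 4 lower with CBE, against 4.56% and 4.27%. The list as a whole was not tested against these shares. TPT1, itself a TOP mRNA, rose by 1.63 with KO and 1.02 with CBE (edgeR adjusted p 1.52e-10 and 6.82e-07). PABPC1, the cytoplasmic poly(A)-binding protein that contacts EIF4G1, rose by 0.47 and 0.62 (edgeR adjusted p 0.000186 and 4.15e-06). PPP1R15A, the stress-induced subunit that directs a phosphatase to eIF2 alpha, fell from 959.5 and 837.1 CPM in AAVS1 KO to 607.3 and 442 CPM in HOTSCRAMBL KO, and from 991.1 and 816.8 to 585.9 and 519.6 CPM with CBE. Its log2 fold changes were −0.79 and −0.71 (edgeR adjusted p 1.14e-06 and 5.46e-06). RPS6KB1, the S6 kinase downstream of mTOR, rose with KO by 0.92 (edgeR adjusted p 6.76e-07), was not called with CBE (0.22, edgeR adjusted p 0.25) and differed between the editors by 0.70 (edgeR adjusted p 0.00664), a difference lost without the line label and in 6 of the 8 fits that leave out one library, all but those without HOTSCRAMBL KO replicate 1 and AAVS1 CBE replicate 2. MTOR fell by 0.42 with CBE (edgeR adjusted p 0.0321) and was not called with KO (−0.34, edgeR adjusted p 0.129). Its CBE call was lost without the line label, with only the 4 CBE libraries and without any one library. The calls of TPT1 and PPP1R15A with both editors held in all 18 alternatives.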

How the data were processed

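The deposited table holds raw counts per gene, not normalised, from 8 ChIRP libraries. Per the file headers they were made by featureCounts 2.0.6 on GRCh38 with the Ensembl 112 annotation, both reads of a pair being counted, without strand; reads placed at several positions or over several genes were not counted. The aligner and duplicate removal are not given in the sources used here. Reads of a gene and its antisense partner cannot be told apart.

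Counts were fitted with edgeR 4.0.16 in R 4.3.3 (quasi-likelihood F-test, robust, TMM scaling, filterByExpr at a minimum count of 10, which kept 24057 genes). Group (4 levels) and labelled line entered the model, leaving 3 residual degrees of freedom; p-values were adjusted by Benjamini-Hochberg over all genes at 0.05. Levels are CPM after TMM scaling. Groups and lines came from the titles, and the pairing is that of the stated line; deviations from group means correlated between groups at r from 0.0154 to 0.0411 over all tested genes and from −0.106 to 0.34 over the members. Nothing else says that the libraries of a group are separate cultures, so p-values measure the spread between these libraries.

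Alternatives were the fit without the line label, only the 4 libraries of a comparison, DESeq2 size factors, no TMM, no filter, a mean CPM of at least 5, DESeq2 1.42.0, limma-voom (limma 3.58.1), halved counts, and each library left out. The script was tested on simulated data. Named with values in every library were the called members, at most the 8 of smallest p per direction and comparison, plus EEF1A1, EEF2, EIF4E, EIF4EBP1, EIF2S1, EIF5A and EIF4G1; EIF3J, EEF1A2 and the members given by fold change alone were added after their values were seen. Genes of other lists were named only if called, at most 5 a list. Members and lists were chosen with earlier results of these data known. TOP members, synthetases, partners, mitochondrial factors, ribosomal proteins and markers were the lists. Scaled by total counts without TMM, 3 counts are worth between 0.079 and 0.146 CPM.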

Additional observations from a re-analysis of the deposited data

Results flagged for a closer look

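The effect of aiming at HOTSCRAMBL differed between KO and CBE for 4 members, by an interaction term over all genes in edgeR. EIF4A3 differed by 1.75 on the log2 scale (adjusted p 0.000169), with changes of 1.28 with KO and −0.47 with CBE, and EIF3A by −0.75 (adjusted p 0.000795), with −0.63 and 0.12. EEF1B2 differed by 0.92 (adjusted p 0.0279), with 2.06 and 1.14, and EIF3G by 0.83 (adjusted p 0.0283), with 0.48 and −0.35. A cause was not tested for any of them.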

How the results depend on the processing

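No result of a member changed its sign past the threshold in any alternative. With only the 4 libraries of a comparison, 9 members were called with KO (19 in the fit of all 8) and 9 with CBE (22). Leaving out one library left 9 to 15 members with KO, 8 to 20 with CBE, 15 to 25 in the average, 1 to 3 in the difference between editors and 1 to 2 between labelled lines. With KO there were 10 without AAVS1 KO replicate 1, 9 without AAVS1 KO replicate 2, 10 without HOTSCRAMBL KO replicate 1 and 9 without HOTSCRAMBL KO replicate 2. With CBE there were 10 and 11 without AAVS1 CBE replicates 1 and 2, and 8 and 11 without HOTSCRAMBL CBE replicates 1 and 2. In the average (30) there were 16 and 19 without AAVS1 KO replicates 1 and 2, 17 without HOTSCRAMBL KO replicate 2, 19 without either AAVS1 CBE library and 15 without HOTSCRAMBL CBE replicate 1. The 4 differences became 1 without AAVS1 KO replicate 1 or AAVS1 CBE replicate 1, and 2 without AAVS1 KO replicate 2, HOTSCRAMBL KO replicate 2, AAVS1 CBE replicate 2 or HOTSCRAMBL CBE replicate 2. Between the lines (2), 1 was left without either library of AAVS1 KO, HOTSCRAMBL KO or AAVS1 CBE. A fit that leaves 1 library in a group assumes that it varies like the others.

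Without the replicate block, that is without the paired line labels, 16 members were called with KO, 18 with CBE, 25 in the average and 2 in the difference between editors. DESeq2 called 9 differences and limma-voom 7. Between the lines 4 members passed at a mean CPM of at least 5 and 4 with DESeq2. Between the controls 0 passed in edgeR and in all 18 alternatives run. Scaling without mitochondrial and ribosomal protein genes, chosen after seeing the data, gave 18, 22, 30 and 5 calls for KO, CBE, average and difference. The calls of EEF1A1, EEF2, EEF1B2, EIF3H and EIF4B with each editor held in all 18 alternatives. EIF2S3B, EIF4EBP3 and EIF5AL1 had few counts, 268, 153 and 447 over all 8 libraries. With 2 libraries a group, small differences of these genes were not detectable.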

Other observations

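The cytosolic aminoacyl-tRNA synthetases charge the tRNAs that eEF1A carries. Of 22 tested genes of this list, 1 was called higher with KO and 8 with CBE in edgeR. Of all genes 4.51% were called higher with KO and 4.56% with CBE. EPRS1, the fused synthetase for glutamate and proline, rose with both editors, by 0.66 with KO (edgeR adjusted p 0.00451) and 0.87 with CBE (edgeR adjusted p 0.000103). WARS1, for tryptophan, stood at 136.2 and 138.6 CPM in AAVS1 CBE and 270.6 and 256.5 CPM in HOTSCRAMBL CBE, without overlap, and rose by 0.94 (SE 0.125, edgeR adjusted p 6.6e-06). With KO it stood at 132.8 and 129.1 against 137.2 and 160.3 CPM and was not called (0.19, edgeR adjusted p 0.507). The test of the difference between editors called WARS1 (−0.76, edgeR adjusted p 0.0213), IARS1 (−0.74, edgeR adjusted p 0.00452) and AARS1 (−0.65, edgeR adjusted p 0.0113). These 3 of 22 had the lower value with KO, against 1.45% of all genes. IARS1 and AARS1 had −0.22 and −0.15 with KO, not called (edgeR adjusted p 0.254 and 0.482), and 0.51 and 0.50 with CBE. The differences of WARS1 and AARS1 were lost without the line label, that of AARS1 also without any one library, that of WARS1 without any but HOTSCRAMBL KO replicate 2, and that of IARS1 without either AAVS1 KO library, HOTSCRAMBL KO replicate 1, either AAVS1 CBE library or HOTSCRAMBL CBE replicate 1. GARS1 rose with CBE by 0.67 (edgeR adjusted p 0.000808), and its difference was not called (−0.63, edgeR adjusted p 0.0742). The call of WARS1 with CBE held in all 18 alternatives, and that of EPRS1 with CBE was lost without HOTSCRAMBL CBE replicate 1. The KO call of EPRS1 was lost with only the 4 KO libraries and without either AAVS1 KO library or HOTSCRAMBL KO replicate 2. GARS1 lost its call without AAVS1 CBE replicate 2 and without HOTSCRAMBL CBE replicate 1.

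Of the 9 tested factors of mitochondrial translation, 0 were called with either editor in edgeR, against 8.76% of all genes with KO and 8.83% with CBE. The smallest edgeR adjusted p-values were 0.304 for MRRF with KO and 0.124 for MTRF1L with CBE. They summed to 396.8 and 383.9 CPM in AAVS1 KO against 442 and 384.3 in HOTSCRAMBL KO, and to 438.1 and 382.8 against 370.4 and 365.3 CPM with CBE. With KO the groups overlapped, and 7 of 9 fold changes were positive. With CBE both HOTSCRAMBL libraries lay below the AAVS1 libraries, and 7 of 9 fold changes were negative.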
